A study of Mus musculus with 12 samples.

Results

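The promoters of Islr2, Gata5, Hcrtr1 and Ctdspl are the 4 named captured promoters whose contacts with other Polycomb sites had the smallest proportional loss, as the mean of 2 median log2 changes, when the activity or the protein of Polycomb repressive complex 1 (PRC1) was removed from mouse embryonic stem cells (ESCs). In CaptureC, crosslinked chromatin is cut and religated, and the ligation partners of chosen promoter fragments, the baits, are counted. All contacts whose bait is 1 of these 4 promoter fragments were taken, which gave 50 of the 842 contacts in the deposited table and 50 of the 414 contacts of its 24 named baits. The contacted end of 6 of the 50 overlapped a site occupied by RING1B together with PCGF2 (a PCGF2 site), and the other 44 ended elsewhere (other sites). The 6 were 1 contact of Islr2, 2 of Gata5, 1 of Hcrtr1 and 2 of Ctdspl.

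All cells were of strain E14. PRC1CPM cells are a single clone (clone 41) with Rosa26::ERT2-Cre, the mutant allele Ring1aI50A/D53K and, at the other gene, the switchable allele Ring1b(WT->I53A/D56K)fl/fl. They were left untreated (UNT) or received 4-hydroxytamoxifen (OHT) at 800 nM during 72 h, which turns Ring1b into the catalytic mutant, so that both groups carried mutant Ring1a throughout. PRC1DEG cells (Tir1, Ring1a-/- and Ring1bAID) received 0.5 mM auxin for 6 h to degrade RING1B. The Control line, with Tir1 alone and intact Ring1a, was also given auxin for 6 h, so PRC1DEG and Control differ by the Ring1a deletion as well as by the degron. Each of the 4 groups had 3 biological replicates, and the table holds 1 value per group in which these are pooled. No spread between replicates and no p-value can therefore be given, and every comparison below describes 4 pooled libraries.

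PRC1 is an E3 ligase whose catalytic subunits, RING1A and RING1B, monoubiquitylate histone H2A. Canonical PRC1, which contains PCGF2 or PCGF4 with CBX and PHC proteins, binds H3K27me3 and gathers distant target genes into physical contact. In ESCs most of its targets are CpG-rich promoters of silent developmental genes. Islr2 encodes a leucine-rich repeat and immunoglobulin domain protein of neurons, Gata5 a zinc finger transcription factor of endoderm and heart, Hcrtr1 a receptor for orexin neuropeptides, and Ctdspl a small phosphatase of the RNA polymerase II C-terminal domain family. Neither histone marks nor transcripts were measured in these libraries, so the state of these genes and the cell type could not be checked with markers.

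Capture relied on a pair of 70-base oligonucleotides at the ends of each bait fragment, and they define what was measured. The oligonucleotide of each pair that lies outside annotated untranslated regions is given on the plus strand of GRCm38 (for Islr2 and Ctdspl, where both do, 1 of them), with the DpnII site (GATC) in capitals. Their positions are chr9:58204404-58204473 for Islr2, chr2:180335654-180335723 for Gata5, chr4:130139507-130139576 for Hcrtr1 and chr9:118926247-118926316 for Ctdspl.
Islr2 right oligonucleotide: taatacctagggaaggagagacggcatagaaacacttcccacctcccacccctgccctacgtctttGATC
Gata5 right oligonucleotide: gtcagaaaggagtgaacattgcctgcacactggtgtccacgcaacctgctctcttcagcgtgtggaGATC
Hcrtr1 right oligonucleotide: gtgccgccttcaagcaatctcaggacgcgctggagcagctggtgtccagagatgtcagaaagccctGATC
Ctdspl left oligonucleotide: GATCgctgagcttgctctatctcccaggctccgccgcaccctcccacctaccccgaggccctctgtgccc

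All 4 bait fragments held the transcription start site (TSS) of their gene, and all overlapped a PCGF2 site. The Islr2 bait was 493 bp long, the Gata5 bait 1112 bp, the Hcrtr1 bait 1058 bp and the Ctdspl bait 904 bp. Their GC content was 57.4%, 57.8%, 66.0% and 78.3%, and their ratio of observed to expected CpGs 0.64, 0.60, 0.58 and 0.92 in the same order. The Ctdspl bait thus stood apart as the richest in GC and in CpG. The other baits resembled each other in the CpG ratio, and Hcrtr1 had a higher GC content than Islr2 and Gata5.

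To show what the baits reached, a 100-base window in the summit fragment of the contacted end is given for 4 of the 6 contacts. It is the window with the most CpGs among those outside annotated untranslated regions, so the fragment can hold a richer one. Windows are on the plus strand of GRCm38 with each CG in capitals. The summit fragment is the DpnII fragment on which the contact peaks. The windows lie at chr9:57940771-57940870 (Sema7a), chr2:180776413-180776512 (Bhlhe23), chr4:129986194-129986293 (Adgrb2) and chr9:118479780-118479879 (Eomes).
End over Sema7a, reached by Islr2: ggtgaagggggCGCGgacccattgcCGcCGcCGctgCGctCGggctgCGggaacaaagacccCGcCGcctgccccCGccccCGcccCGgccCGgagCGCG
End over Bhlhe23, reached by Gata5: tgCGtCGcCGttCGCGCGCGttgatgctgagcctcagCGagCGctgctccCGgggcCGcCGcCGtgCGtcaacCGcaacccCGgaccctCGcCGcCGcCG
End in Adgrb2, reached by Hcrtr1: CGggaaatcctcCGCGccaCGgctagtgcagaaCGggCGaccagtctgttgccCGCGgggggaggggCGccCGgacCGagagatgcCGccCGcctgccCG
End in Eomes, reached by Ctdspl: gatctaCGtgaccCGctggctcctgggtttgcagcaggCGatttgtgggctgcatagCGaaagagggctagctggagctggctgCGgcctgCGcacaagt

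These windows held 16 CpGs at Sema7a, 20 at Bhlhe23 and 14 at Adgrb2, but 6 at Eomes. A second contacted fragment near Bhlhe23 held 3 in the window chosen in the same way. Over the whole summit fragment the ratio of observed to expected CpGs was 0.62 at Sema7a, 0.68 at Bhlhe23, 0.56 at Adgrb2 and 0.46 at Eomes, against 0.20 at the second Bhlhe23 fragment. The contacted ends of these baits therefore comprised CpG-dense and CpG-poor fragments. Their median of 0.51 lay close to the 0.49 of the 124 contacts of the other 18 baits at PCGF2 sites, whereas the median was 0.24 at the 44 other-site ends of the same 4 baits and 0.22 at the 240 of the remaining baits.

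**Figure D1:**
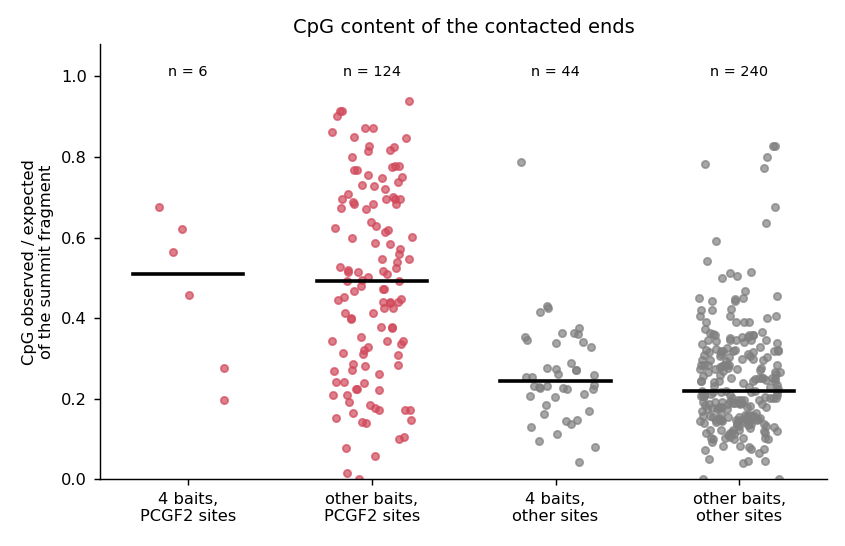
Ratio of observed to expected CpGs (vertical axis) in the summit fragment of each contact of the 24 named baits, split by bait and by overlap with a PCGF2 site; each point is a contact, bars are medians and horizontal scatter is for visibility only. The 6 PCGF2 ends of the 4 baits range from 0.20 to 0.68 with a median of 0.51, and the 44 other ends have a median of 0.24.

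The Islr2 bait (chr9:58203977-58204469) reached 1 PCGF2 site, a region of 32 fragments and 13252 bp over Sema7a at chr9:57930088-57943339, centred 268 kb away towards lower coordinates. It contains the TSS and coding exons of Sema7a, which encodes a membrane-anchored semaphorin. It held 373 weighted reads in UNT, 266 in OHT, 390 in Control and 381 in PRC1DEG cells. A weighted read is a ligation product recovered from the steps of the normalized values, and 1 of them was worth 0.00112 normalized reads in UNT, 0.00122 in OHT, 0.00159 in Control and 0.00149 in PRC1DEG cells for all 4 baits. The normalized count per fragment after OHT was 77.9% of that in untreated cells, a log2 change of -0.35 (95% Wilson interval of the reads -0.59 to -0.13). In PRC1DEG cells it was 91.3% of the Control value, a log2 change of -0.13 (-0.34 to 0.07). Islr2 had the most reads of the 4 baits at PCGF2 sites, summed over 32 fragments. Multiplied by 1000, its count per fragment was 13.0 in untreated cells, against 20.1 to 50.2 at the other contacts given singly. Its intervals lay wholly above a log2 change of -1, a 2-fold loss, in both systems. A loss in PRC1DEG cells was not detectable at this depth. Such an interval was found for 2 of the 6 contacts in each system. In the same range of distance, 6 of 19 contacts of other baits had one after OHT and 1 in PRC1DEG cells.

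The Gata5 bait (chr2:180334608-180335719) reached 2 neighbouring fragments at Bhlhe23, a basic helix-loop-helix transcription factor gene. The first, at chr2:180776112-180778411, contained the Bhlhe23 TSS 442 kb away and held 26, 19, 29 and 26 reads in untreated PRC1CPM, OHT-treated, Control and PRC1DEG cells. The second, at chr2:180779119-180779487, was intergenic, 2.22 kb from that TSS, and held 20, 13, 24 and 18 reads in the same order. Both held fewer reads in the treated group of each system. Their log2 changes after OHT were -0.32 (interval -1.17 to 0.52) and -0.48 (-1.48 to 0.49), and in PRC1DEG cells -0.25 (-1.01 to 0.50) and -0.51 (-1.38 to 0.36). No change was detectable at this depth for either fragment. With the reads of both added together the changes were -0.40 (-1.04 to 0.25) and -0.37 (-0.94 to 0.21).

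The Hcrtr1 bait (chr4:130138515-130139572) reached 1 PCGF2 site, an 866 bp fragment at chr4:129985982-129986847 in an intron of Adgrb2, 0.71 kb from its TSS and 153 kb from the bait. Adgrb2 encodes an adhesion G protein-coupled receptor of the brain. The fragment held 45 reads in UNT, 34 in OHT, 42 in Control and 37 in PRC1DEG cells. Its level was 82.6% of the untreated value after OHT and 82.3% of the Control value in PRC1DEG cells. These are log2 changes of -0.27 (-0.91 to 0.36) and -0.28 (-0.91 to 0.35), so that neither was detectable at this depth, although both intervals lay above a 2-fold loss.

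The Ctdspl bait (chr9:118926247-118927150) reached 2 PCGF2 sites, 1 of them at Eomes. There it contacted a coding part of the gene, which encodes a T-box transcription factor of early development, at chr9:118479780-118480881, 446 kb away towards lower coordinates and 1.44 kb from the Eomes TSS. This end held 18 reads in UNT, 12 in OHT, 24 in Control and 10 in PRC1DEG cells. In PRC1DEG cells its level was 38.9% of that in Control cells, a log2 change of -1.34 (-2.40 to -0.32), and after OHT it was 72.9% of the untreated value, a change of -0.45 (-1.49 to 0.58). The contact between Ctdspl and Eomes was the sole member with an interval below 0 in PRC1DEG cells, where 69.2% of the 130 contacts of named baits at PCGF2 sites had one. After OHT the Islr2 contact was the sole such member, against 56.9%. The intervals of the 2 systems overlapped, and the difference between them was not tested.

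**Figure D2:**
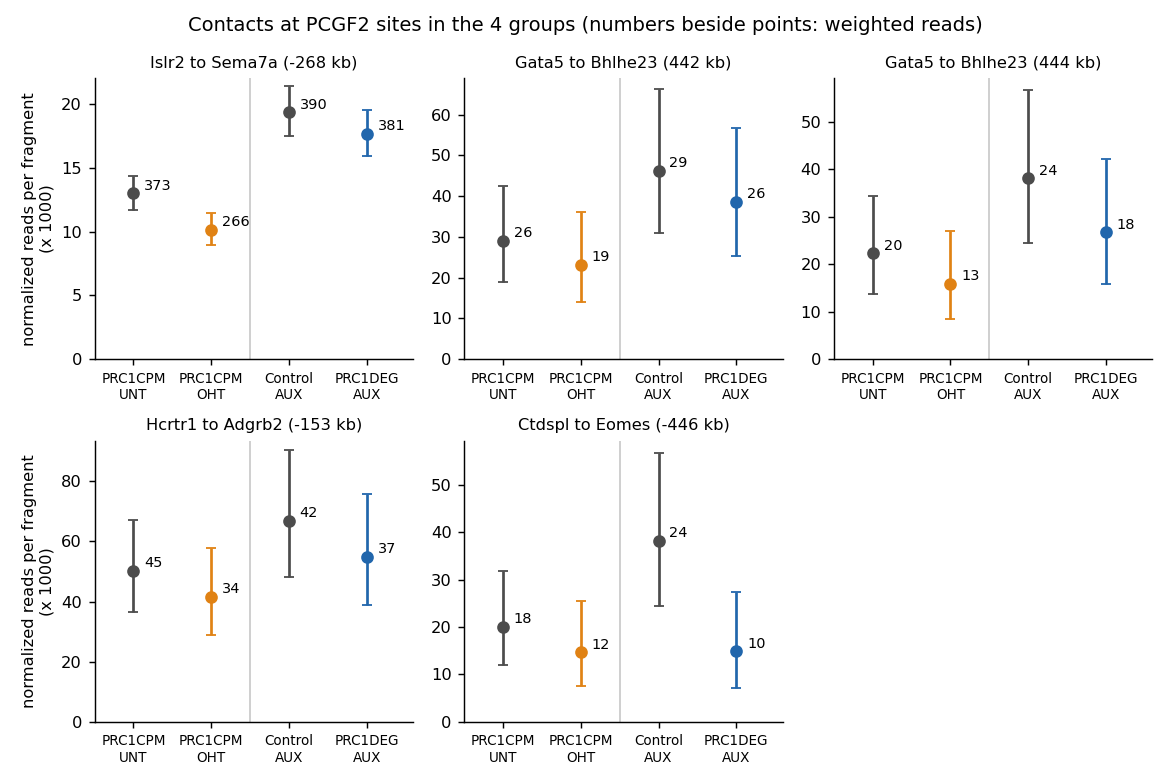
Normalized read count per fragment, multiplied by 1000 (vertical axes, each from 0), of 5 of the 6 contacts at PCGF2 sites in the 4 groups; points are the pooled values, bars are exact 95% Poisson intervals of the weighted reads printed beside them, and a grey line parts the 2 experiments, whose levels are not on a shared scale. The treated group lies below its reference in every panel, with overlapping bars in all panels but that of Islr2 in PRC1CPM cells.

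The Ctdspl and Eomes contact could also be read from the Eomes promoter, which was a bait of its own and 1 of the 22 among which the 4 were chosen. The end reached by Ctdspl began 254 bp past the Eomes bait fragment, and the Eomes bait in turn reached 2 fragments beside the Ctdspl bait. The first of these, chr9:118927151-118927353, adjoined the Ctdspl bait fragment and held 10 reads in UNT, 7 in OHT, 21 in Control and 0 in PRC1DEG cells, where a count of 0 allows up to 3. The second, chr9:118927525-118928671, held 17, 12, 15 and 11. The log2 change of the second was -0.37 (-1.42 to 0.67) after OHT and -0.54 (-1.64 to 0.55) in PRC1DEG cells. The reads of both fragments together gave a log2 change of -0.38 after OHT (-1.21 to 0.46) and of -1.81 in PRC1DEG cells (-2.77 to -0.85). From the Eomes end, the interval below 0 in PRC1DEG cells thus rested on the joined reads and on the first fragment, and no change was detectable in the second fragment alone or after OHT. No other named bait reached within 5 kb of the Islr2, Gata5, Hcrtr1 or Ctdspl baits.

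The members were chosen by these changes, so their place among the baits is a description. Of the 22 named baits with a contact at a PCGF2 site, they had the least negative means of the 2 median log2 changes: -0.24 for Islr2, -0.28 for Hcrtr1, -0.39 for Gata5 and -0.67 for Ctdspl. Just outside were Hoxb1 at -0.73 and Igfbp5 at -0.77, so Ctdspl lay closer to Hoxb1 than to Gata5. Within 1 system the order differed at the edge: after OHT Eomes (-0.37) came before Gata5 (-0.40) and Ctdspl (-0.50), and in PRC1DEG cells Igfbp5 (-0.82) came before Ctdspl (-0.84). The Ctdspl median is that of 2 contacts.

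**Figure D3:**
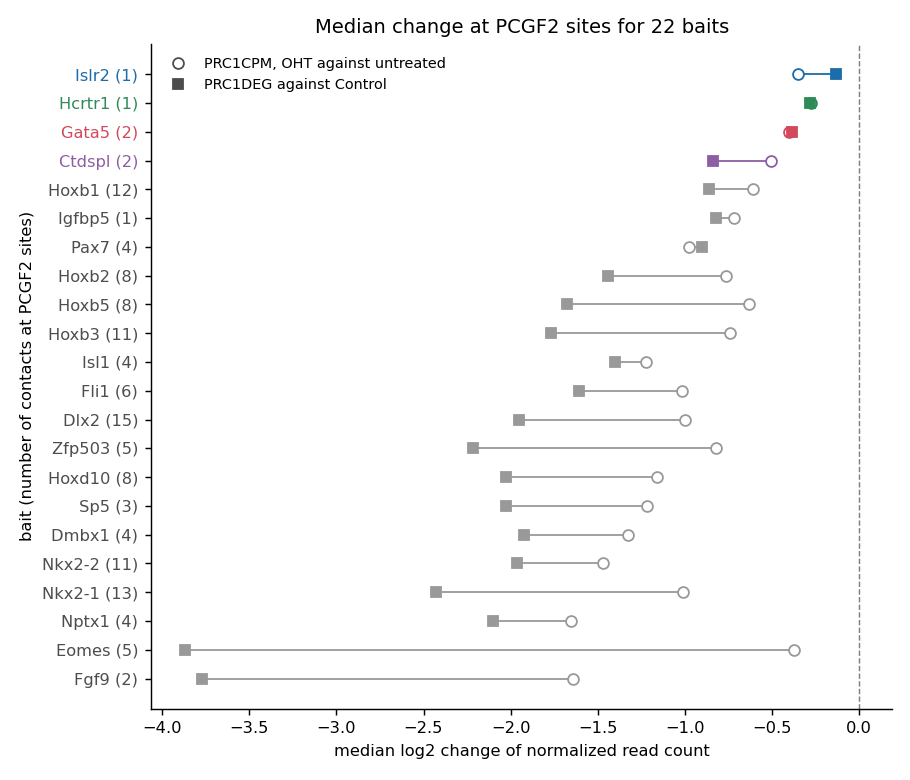
Median log2 change of the normalized read count at PCGF2 sites (horizontal axis) for the 22 named baits, with the number of contacts in parentheses; open circles are PRC1CPM cells after OHT against untreated, squares are PRC1DEG against Control, and baits are ordered by the mean of the 2. Islr2, Hcrtr1, Gata5 and Ctdspl, in colour, lie at the top between -0.13 and -0.84, and each rests on 1 or 2 contacts.

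The 6 contacts had a median log2 change of -0.40 after OHT, and of -0.31 in PRC1DEG cells. The same medians over the 124 contacts of the other 18 baits were -0.97 and -1.84. The auxin values came on 2 scales that split the baits, and the 4 baits shared 1 of them. The 108 contacts of other baits on that scale had medians of -0.97 and -1.85, and the 16 on the other scale -0.99 and -1.65. After OHT 0 of the 6 contacts were at least 2-fold lower, and over all 130 contacts of named baits at PCGF2 sites the share was 46.9%. In PRC1DEG cells 1 of the 6, between Ctdspl and Eomes, was at least 2-fold lower, and the share over the 130 was 76.9%. An interval wholly above a 2-fold loss was found for 2 of the 6 in each system. Among the 108 contacts it was found for 21 after OHT and 8 in PRC1DEG cells, and among the 16 for 2 and 0. The rule used these contrasts, so nothing is read from the gap. When the reads were summed, the 6 contacts gave -0.36 (-0.56 to -0.17) after OHT and -0.21 (-0.39 to -0.03) in PRC1DEG cells, and Islr2 supplied 373 of the 495 reads in untreated cells. Without Islr2 the other 5 contacts gave -0.38 (-0.77 to 0.02) and -0.47 (-0.84 to -0.10). Without the Ctdspl contact with Eomes as well, the other 4 gave -0.36 (-0.79 to 0.07) and -0.33 (-0.73 to 0.07), so the interval below 0 in PRC1DEG cells without Islr2 rested on that contact. These sums describe the contrasts that chose the members.

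**Figure D4:**
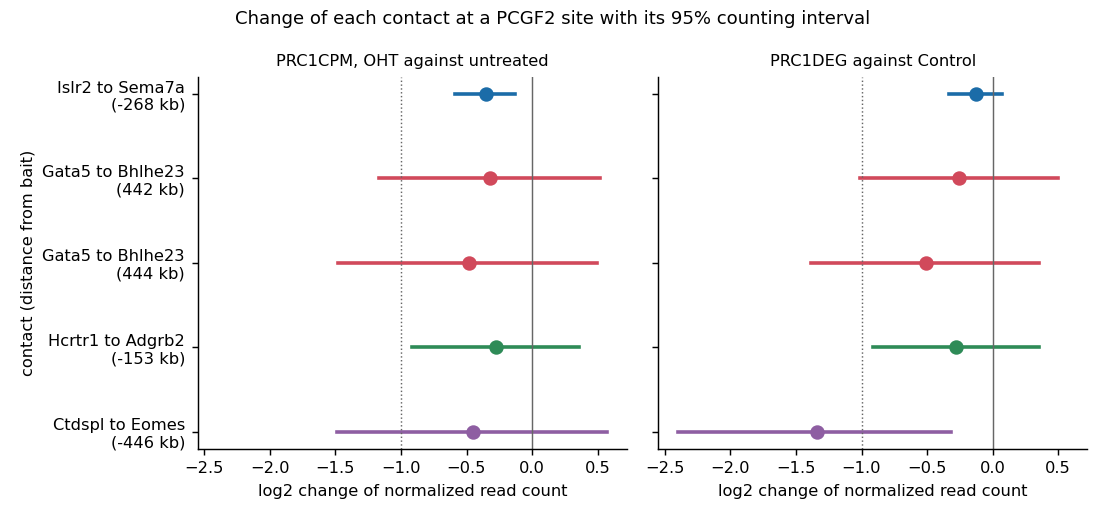
Log2 change of the normalized read count (horizontal axes) of 5 of the 6 contacts at PCGF2 sites in the 2 systems; points are the changes, bars are 95% Wilson intervals that cover counting error only, the solid line is no change and the dotted line a 2-fold loss. All 5 points lie below 0 in both panels, and the bar lies wholly below 0 for Islr2 after OHT and for the Ctdspl contact with Eomes in PRC1DEG cells.

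The contacts of these baits at PCGF2 sites lay a median of 443 kb from the bait, the nearest at 153 kb, whereas those of the other 18 baits spanned from 18.9 to 51470 kb with a median of 1007 kb. In the same range of distance the other baits had 19 contacts, from 11 baits, with median log2 changes of -0.80 after OHT and -1.57 in PRC1DEG cells. Of these 19, 3 lay at or above the lowest member value after OHT and 8 in PRC1DEG cells. The 3 include both Eomes-bait fragments beside the Ctdspl bait (each -0.37), which read the Ctdspl and Eomes contact from its other end. The second of those fragments (-0.54) is also among the 8. The lowest member value in PRC1DEG cells, -1.34, is itself that of the Ctdspl contact with Eomes. These 19 held a median of 305 reads in untreated cells, against 23 for the members. They were also wider, with a median of 11138 bp against 984 bp, and reads are summed over the width of a contact. None of the 50 contacts had fewer than 8 reads in any group, whereas 43 of the 124 had 3 or fewer in at least 1 group.

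Interaction scores of the 6 contacts come from the same reads as the changes, so they are not separate evidence. The CHiCAGO score weighs the reads on a fragment against those expected at its distance, and a contact counted as called when its summit fragment scored at least 5. In untreated PRC1CPM cells 5 of the 6 contacts were called, against 66.2% of the 130 contacts of named baits at PCGF2 sites. After OHT 0 were called, against 11.5%. In Control cells 2 were called against 53.1%, and in PRC1DEG cells 1 against 2.31%. Entry into the table needed such a call, which 4 of the 6 had in untreated PRC1CPM cells alone and 1 in Control cells alone. These counts, and lower scores in the treated groups, were therefore partly set by entry, and nothing is read from them. The one contact called in PRC1DEG cells was that of Islr2, with summit scores of 7.43 in UNT, 4.57 in OHT, 6.51 in Control and 7.04 in PRC1DEG cells. Its mean scores over the 32 fragments of the region were lower, at 2.80, 2.18, 1.69 and 1.72 in the same order.

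The other summit scores passed 5 in 1 group each. At the Bhlhe23 TSS the score was 4.39 in UNT, 3.53 in OHT, 5.01 in Control and 3.28 in PRC1DEG cells. At the fragment beside it the score was 5.53, 1.95, 3.50 and 1.12. At Adgrb2 it was 6.12, 3.26, 3.73 and 2.29 in the same order. At Eomes it was 5.49, 3.61, 3.36 and 0. These 4 contacts had lower scores in the treated group of each system and were at 6.12 or below in the reference libraries, whereas the Islr2 score was lower after OHT and higher in PRC1DEG than in Control cells. Scores depend on each library and cannot be compared in level between the experiments.

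A contact entered the table only if it was called in at least 1 library, and 4 of the 6 were called in untreated PRC1CPM cells alone. Their median change after OHT was -0.47. Of the 44 contacts of the same baits at other sites, 17 were called in untreated PRC1CPM cells alone, and all 17 had a lower count after OHT, with a median of -0.41. A further 19 were called after OHT alone, and 17 of these had a higher count after OHT, with a median of 0.33. The change after OHT thus followed the library of the call at other sites as well, and contacts of these baits with the same calls had medians of -0.47 with PCGF2 and -0.41 without. In PRC1DEG cells, whose libraries were not those of the call, the 17 had a median of 0.10 with 7 lower, and the 4 had a median of -0.42 with all 4 lower. At the other 18 baits, the 46 PCGF2 contacts called in untreated PRC1CPM cells alone had medians of -1.08 and -1.60.

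Other-site contacts of the 4 baits showed no shared direction after OHT. Their median log2 change was -0.06, with 23 of 44 lower, and in PRC1DEG cells it was 0.17, with 13 of 44 lower. None of the 44 was 2-fold lower in either system, against 5.28% after OHT and 3.87% in PRC1DEG cells of the 284 such contacts of all named baits. In PRC1DEG cells 6 of the 44 had an interval above 0 and 0 below, against 6.69% and 6.34% of the 284. After OHT 0 had an interval above 0 and 2 below, against 0.352% and 7.39%. The medians over the 284 contacts were -0.17 and 0.09. Relative to this shift the 6 PCGF2 contacts had medians of -0.23 after OHT and -0.40 in PRC1DEG cells. The shift after OHT was itself not independent of the calls. At the other 20 baits, 122 other-site contacts were called in untreated PRC1CPM cells alone, with a median of -0.42 after OHT. A further 58 were called after OHT alone, with a median of 0.37. The shift is therefore not a neutral reference, and nothing is read from the centred value after OHT.

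Within the baits, the PCGF2 contacts had lower medians than the other-site contacts in both systems. After OHT this gap was not independent of the calls. Called after OHT alone were 19 of the 44 other-site contacts and 0 of the 6 PCGF2 contacts, and that call went with a higher count. The gap in PRC1DEG cells was not wholly independent of the calls either. Called in Control cells were 2 of the 6 PCGF2 and 2 of the 44 other-site contacts, and in PRC1DEG cells 1 and 7. For Hcrtr1 the PCGF2 change of -0.27 after OHT stood against a median of 0.07 over 14 other contacts, of which 12 were higher, and the -0.28 in PRC1DEG cells against 0.33, where all 14 were higher than the PCGF2 contact. For Gata5 the medians were -0.40 and 0.24 after OHT, where 3 of 4 other contacts were higher than both PCGF2 contacts, and -0.38 and 0.18 in PRC1DEG cells, where all 4 other contacts were higher. For Ctdspl they were -0.50 and -0.25 after OHT, where 12 of 15 were higher, and -0.84 and 0.30 in PRC1DEG cells, where all 15 were higher. For Islr2 they were -0.35 and -0.17 after OHT, and -0.13 and -0.10 in PRC1DEG cells, the smallest gap of the 4, with 8 of 11 other contacts higher in each system. Centring each bait on its own other-site contacts moved the median of the 6 in PRC1DEG cells from -0.31 to -0.62, and after OHT from -0.40 to -0.32.

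**Figure D5:**
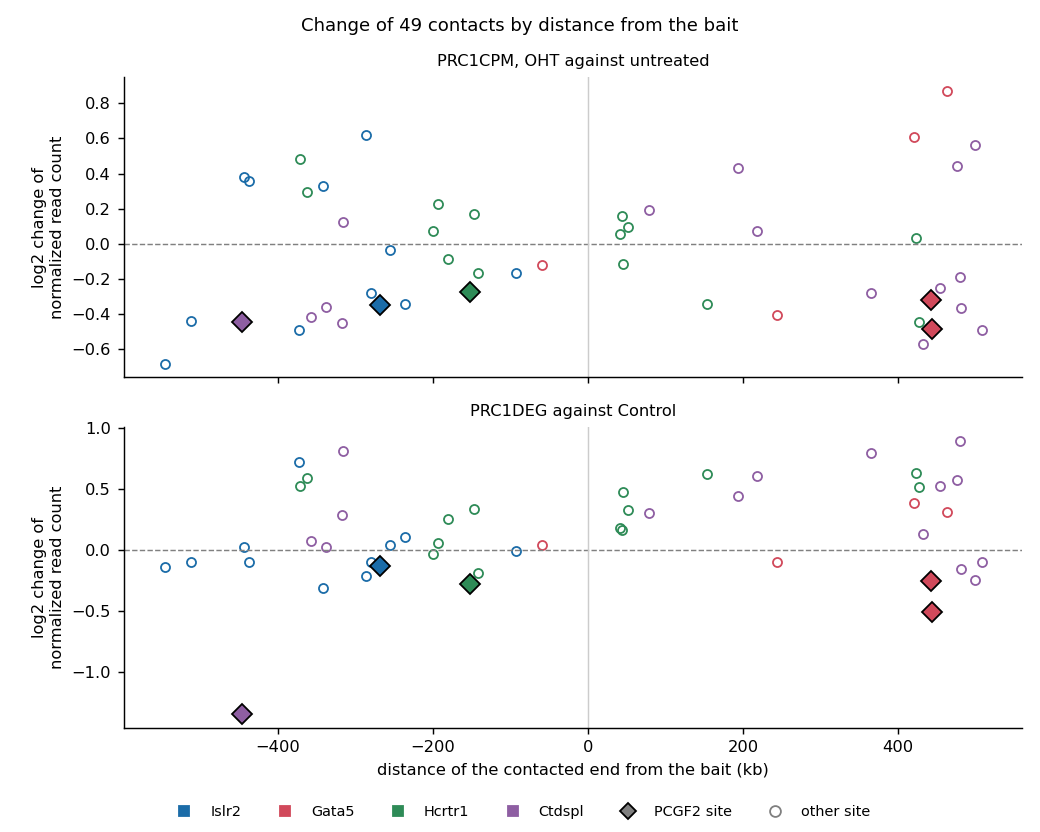
Log2 change of the normalized read count (vertical axes) of 49 of the 50 contacts against the distance of the contacted end from the bait in kb (horizontal axis, negative towards lower coordinates), with filled diamonds for PCGF2 sites and open circles for other sites, coloured by bait. The diamonds lie below 0 in both panels, the circles lie on both sides of 0 after OHT with a median of -0.06 and mostly above 0 in PRC1DEG cells with a median of 0.17.

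The 3 other-site contacts of each bait with the most reads ranged from single fragments to regions of 31 fragments. For Gata5 a region of 26 fragments over Cables2, 59.7 kb away, held 1664 reads in UNT, 1397 in OHT, 1853 in Control and 2037 in PRC1DEG cells, with log2 changes of -0.12 (-0.23 to -0.02) and 0.04 (-0.05 to 0.13). A fragment beside Mrgbp, a subunit gene of the NuA4 acetyltransferase complex, held 32, 22, 29 and 29 reads, with changes of -0.41 (-1.19 to 0.36) and -0.10 (-0.83 to 0.64). The third lay 21.0 kb from the Bhlhe23 TSS and held 32, 45, 30 and 42 reads, with changes of 0.61 (-0.03 to 1.27) and 0.38 (-0.28 to 1.06). The fourth other-site contact of Gata5, named after its values were seen, lay on the opposite side of Bhlhe23, 20.3 kb from its TSS, and held 13, 22, 15 and 20 reads, with changes of 0.87 (-0.08 to 1.86) and 0.31 (-0.63 to 1.27). The fragments that flank Bhlhe23 thus had more reads in the treated groups while the PCGF2 fragments between them had fewer, with intervals that include 0 for each. Both flanking contacts were called after OHT alone, with summit scores of 8.03 and 7.17. The PCGF2 fragments were called in Control cells alone (the one with the TSS) and in untreated PRC1CPM cells alone. The contrast was therefore not independent of the calls, and nothing is read from it.

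Hcrtr1 contacted a region of 31 fragments over exons of Spocd1, 181 kb away and 20.0 kb from the Adgrb2 TSS, with 497 reads in UNT, 428 in OHT, 495 in Control and 634 in PRC1DEG cells. Its changes were -0.09 (-0.27 to 0.10) and 0.26 (0.09 to 0.43). On the other side, an intergenic region of 12 fragments 52.3 kb away, nearest to Tinagl1, held 580, 567, 524 and 706 reads, with changes of 0.10 (-0.07 to 0.26) and 0.33 (0.17 to 0.49). A fragment 41.1 kb away, also nearest to Tinagl1, which encodes a matricellular protein, held 104, 99, 108 and 131 reads, with changes of 0.06 (-0.34 to 0.45) and 0.18 (-0.19 to 0.55). Both wide regions of Hcrtr1 had higher counts in PRC1DEG than in Control cells with intervals above 0, and neither had a detectable change after OHT.

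Islr2 contacted a region of 13 fragments over Ccdc33, 92.6 kb away, with 451 reads in UNT, 367 in OHT, 398 in Control and 423 in PRC1DEG cells. It had changes of -0.17 (-0.37 to 0.03) and -0.01 (-0.21 to 0.19). It also contacted an intron of Sema7a beside the PCGF2 region, 255 kb away, with 66, 59, 69 and 76 reads and changes of -0.03 (-0.54 to 0.47) and 0.04 (-0.43 to 0.51). Near Csk, a kinase that restrains Src family kinases, 6 fragments 546 kb away held 31, 17, 30 and 29 reads, with changes of -0.68 (-1.58 to 0.10) and -0.14 (-0.88 to 0.58). The Ccdc33 region and the Sema7a region with PCGF2 had similar numbers of reads, and after OHT the interval lay below 0 for Sema7a and reached 0.03 for Ccdc33.

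Ctdspl contacted an intergenic region of 16 fragments, nearest to the TSS of the integrin gene Itga9 and 338 kb away. It held 270 reads in UNT, 191 in OHT, 313 in Control and 341 in PRC1DEG cells, with changes of -0.36 (-0.64 to -0.10) and 0.03 (-0.20 to 0.25). The change after OHT of this region without PCGF2 was as large as that of the Islr2 region with it. A fragment in an intron of Ctdspl itself lay 79.0 kb away, and one over a coding exon of Dlec1, a gene named for its deletion in lung and esophageal cancer, 218 kb away. The first held 64, 67, 69 and 91 reads, with changes of 0.19 (-0.30 to 0.69) and 0.30 (-0.15 to 0.75). The second held 27, 26, 35 and 57 reads, with changes of 0.07 (-0.69 to 0.84) and 0.60 (0.00 to 1.21).

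The depth behind these values was modest. The 50 contacts held 5112 weighted reads in UNT, 4367 in OHT, 5167 in Control and 5970 in PRC1DEG cells, of between 36181 and 69635 over the 414 contacts of named baits. The difference between the systems, the change in PRC1DEG cells minus that after OHT, had a median of 0.03 over the 6 contacts, from -0.89 for Ctdspl and Eomes to 0.22, and of -0.76 over the 124 of the other baits. The 2 systems are different cell lines with different treatments and separate captures, so system and perturbation cannot be told apart in that difference.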

How the data were processed

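CaptureC was carried out on 12 samples in 4 groups of 3. Per the methods, the authors aligned paired-end reads with HiCUP and Bowtie2 (mm10, fragments of 100 to 800 bp), ran CHiCAGO on merged replicates and joined fragments that scored at least 5 and lay under 10 DpnII fragments apart. Versions of HiCUP and CHiCAGO are not given in the sources used here. Per the methods, the deposited signal values are weighted reads scaled to all reads at captured promoters and to how many promoters were captured, and the deposited score values are CHiCAGO scores, each summed over a contact or for its summit.

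Values were divided by the number of fragments. Log2 changes used a pseudocount, 0.000350, equal to the lowest value above 0. Whole reads were recovered from the steps of the values (100% of 3368 values at a tolerance of 0.1). They gave 95% Wilson intervals of the treated share of reads, whose calculation was tested on simulated data. No molecular identifiers are described, so intervals and the floor of 3 reads cover counting error only. No test between groups was made. Bait fragments and oligonucleotides matched GRCm38 (all 24 fragments, all 48 oligonucleotides), which was used with GENCODE M21 for TSSs of protein-coding genes. Every contact at a PCGF2 site is named except 1 of Ctdspl, which is not reported here but enters the medians and counts, with the 3 other-site contacts per bait that had the most reads. Members and lists were chosen with earlier results of these data known. The table marks sites with both RING1B and PCGF2, so other sites can hold RING1B alone. Python 3.11.15, numpy 2.4.6, pandas 2.3.3, scipy 1.17.1, pysam 0.24.0 and matplotlib 3.10.9 were used. Alternatives concerned the pseudocount, low contacts, the summary, the baits, the centring, the score and the calling threshold.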

Additional observations from a re-analysis of the deposited data

How the results depend on the processing

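Across the alternatives, the median log2 change of the 6 contacts at PCGF2 sites ranged from -0.47 (summit fragment alone, chosen after seeing the data) to -0.23 (centred on all other-site contacts) after OHT, and from -0.62 to -0.21 in PRC1DEG cells. At other sites the median ranged from -0.18 to 0.11 after OHT, with 0.03 without the Islr2 bait, 0.03 without the Ctdspl bait and 0.11 when centred, all on the opposite side of 0 from the reported -0.06, and from 0.06 to 0.31 in PRC1DEG cells. The difference between systems, 0.03, ranged from -0.17 to 0.15. These moves were judged against counting intervals of single contacts, which are wide, so their size says little about stability. A calling threshold of 3 gave 4 of 6 called contacts in OHT, 5 in Control and 2 in PRC1DEG cells. A threshold of 10 gave 0 in untreated PRC1CPM, 0 in Control and 0 in PRC1DEG cells. The mean score over fragments gave 1 in Control and 0 in PRC1DEG cells. A TSS lay inside the end for 2 contacts, against 5 with one within 5 kb. No paired analysis was possible because each column pools its 3 replicates and carries no replicate number, and leaving out a replicate was not run for the same reason.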
